A study of Mus musculus with 16 samples.

Results

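The 32 genes described here belong to the unfolded protein response, the programme with which a cell answers misfolded protein in the endoplasmic reticulum (ER). They were selected by symbol and not by a cut on measured values, but with earlier results of these data known. All 32 were found among the 23159 gene symbols of the count table. The list holds 16 ER chaperones and foldases, 5 genes of the ATF4 branch, 6 genes of ER-associated degradation (ERAD), the 3 stress sensors Ern1, Atf6 and Eif2ak3, the transcription factor Xbp1 and the translocon subunit Sec61b. RNA was sequenced from macrophages isolated from mouse bronchoalveolar lavage, the fluid washed out of the airways and alveoli. There were 4 groups of 4 libraries, 16 in all: wild-type (WT) and TLR3-KO mice, each as controls whose treatment is labelled none and as injured mice sampled following pneumonia. TLR3 is the endosomal receptor for double-stranded RNA. Injured mice had received Klebsiella pneumoniae strain 43816, serotype 2, at 500 CFU in 30 µl by injection deep into the hypopharynx under isoflurane, and the protocol names saline as the other inoculum. The labels state neither the time after infection, the age of the mice, the construction of the knockout, nor whether each library came from its own mouse. The p-values therefore measure only the spread between these libraries.

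ER stress is sensed by 3 membrane proteins. IRE1, encoded by Ern1, splices Xbp1 mRNA, and the resulting factor, like the cleaved form of ATF6, switches on chaperone and ERAD genes. PERK, encoded by Eif2ak3, phosphorylates eIF2α, which lowers general translation while raising that of ATF4, and ATF4 induces Ddit3 (CHOP), Trib3, Chac1 and amino acid genes such as Asns. Several of these steps are splicing, cleavage, phosphorylation or translation, and counts per gene do not measure them. Alveolar macrophages are long-lived resident phagocytes of the airspace that take up surfactant and microbes.

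Factors of the response bind short DNA elements, and the promoters shown are those of 7 of the 11 members that hold a match to such an element. RefSeq promoter sequences (build GRCm38.p6) were found for 28 of 32 members, and the 250 bases before the transcription start were searched on both strands. The ER stress response element, CCAAT and CCACG with 9 bases of any kind between them, was present before 8 of 28 members (Calr, Canx, Creld2, Dnajc3, Hsp90b1, Hspa5, Pdia6 and Syvn1) and before 0.13% of all 27025 genes with a promoter. Its second form, ATTGG and CCACG with 1 base between them, was present before Herpud1 alone among the members and before 0.037% of genes. The shorter core of the amino acid response element, TGATGNAA, was present before Asns, Chac1 and Herpud1 and before 3.907% of genes. TGACGTGG and TGACGTCA were in none of the 28 windows, against 0.603% and 1.769% of genes. In all 11 of 28 members had a match and 17 had none, among them Fkbp11, Atf4, Trib3, Ddit3, Xbp1, Sec61b, Sel1l, Edem1 and Derl2. A match is a description of the sequence, not of binding, and no match says only that these letters are not in this window. In the sequences below capitals mark the matches, and each sequence runs 5′ to 3′ on the strand of its gene. The windows of Hspa5, Asns and Hsp90b1 have short flanks because longer ones reached annotated exons. All 29 bases shown for Hspa5 and all 18 for Asns, matches included, lie in annotated exons themselves. The windows are chr2:34772020-34772048 on the plus strand (Hspa5), chr8:84847045-84847123 on the minus strand (Calr), chr10:86705528-86705661 on the minus strand (Hsp90b1, with 1 match on each strand), chr12:17266461-17266539 on the plus strand (Pdia6), chr8:94386287-94386417 on the plus strand (Herpud1), chr6:7693220-7693237 on the minus strand (Asns) and chr2:119351019-119351086 on the plus strand (Chac1).
Hspa5: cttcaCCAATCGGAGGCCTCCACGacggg
Calr: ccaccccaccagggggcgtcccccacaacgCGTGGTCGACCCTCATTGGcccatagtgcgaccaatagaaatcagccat
Hsp90b1: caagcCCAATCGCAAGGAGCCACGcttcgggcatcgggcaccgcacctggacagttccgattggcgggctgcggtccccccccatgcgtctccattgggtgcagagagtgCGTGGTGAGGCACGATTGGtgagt
Pdia6: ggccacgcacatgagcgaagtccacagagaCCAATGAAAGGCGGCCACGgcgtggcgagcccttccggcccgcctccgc
Herpud1: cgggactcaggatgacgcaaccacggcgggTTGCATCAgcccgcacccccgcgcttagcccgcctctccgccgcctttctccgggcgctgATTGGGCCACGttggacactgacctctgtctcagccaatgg
Asns: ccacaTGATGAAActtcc
Chac1: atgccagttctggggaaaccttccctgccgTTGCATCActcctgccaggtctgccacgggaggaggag

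Library totals ran from 29667102 to 59640251 counts. Levels are given as CPM, counts scaled to the size of the library. Tlr3 lay between 2.3 and 4.7 CPM in WT libraries and between 0.28 and 0.74 CPM in those labelled TLR3-KO. Markers of alveolar macrophages summed to 19651 to 28676 CPM in every library, 76.5% of it from Chi3l3. The study title names male mice, but Xist reached 20.1 to 45.6 CPM in controls 1, 2 and 3 of the TLR3-KO group, against at most 0.22 CPM in the 13 other libraries, so the Xist level is partly confounded with genotype among controls and with pneumonia within TLR3-KO mice. In both genotypes controls 1 and 2 stood apart from controls 3 and 4. The monocyte list, 81.8% of it Nr4a1, summed to 284 to 369 CPM in controls 1 and 2 and to 60.4 to 79.0 CPM in controls 3 and 4. Long and short transcripts also shifted against each other between libraries. The longest transcripts (4410 bases or more) minus the shortest (1889 or fewer), as a median departure in log2 CPM, stood at -0.46 and -0.38 in TLR3-KO controls 3 and 4, -0.23 in TLR3-KO control 1 and 0.15 in TLR3-KO control 2, against -0.13 to 0.31 in TLR3-KO injured libraries. The same difference was 0.34, 0.31, -0.24 and 0.14 in WT controls 1 to 4. For WT injured libraries 1 to 4 it was -0.41, -0.016, 0.19 and 0.16. In bulk RNA, fewer cells of a type and less RNA per cell cannot be told apart.

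All 32 members passed the expression filter, which kept 12455 genes. CPM values of single genes below are scaled by the TMM factors of the edgeR fit. Per kilobase of transcript, Hspa5, which encodes the ER Hsp70 BiP, was the most abundant member at 641 CPM per kilobase (mean of 16 libraries). It was followed by Calr (567), Hsp90b1 (394), Pdia3 (390) and P4hb (366), which encode calreticulin, GRP94 and the protein disulfide isomerases ERp57 and PDI. Xbp1 stood at 275 CPM per kilobase, the sixth highest, whereas the sensors were low at 12.3 for Eif2ak3, 7.9 for Atf6 and 1.7 for Ern1. ERAD genes lay between 26.6 (Derl2) and 142 (Herpud1). The ATF4 branch was uneven: Atf4 itself was at 119 CPM per kilobase, Ddit3 at 30.2, and Asns, Trib3 and Chac1 at 5.8, 3.5 and 0.85. Chac1, which encodes a glutathione-degrading enzyme, rested on 31 to 120 counts per library and Fkbp11, a prolyl isomerase of the ER, on 114 to 437.

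Hspa5 showed how wide the spread was within groups. It read 2576, 2146, 3009 and 3210 CPM in WT controls 1 to 4, 1767, 2488, 2385 and 2986 CPM in WT injured, 2192, 2475, 2024 and 2243 CPM in controls of TLR3-KO mice, and 1954, 2080, 2121 and 2000 CPM in TLR3-KO injured libraries. The groups overlapped within both genotypes, and the TLR3-KO injured libraries lay close together. Its log2 fold change lay between -0.29 and 0.05 over the 5 comparisons, and edgeR called none. The branch means were computed as log2(CPM + 0.5) on raw library totals. The 16 chaperones and foldases averaged 8.26 ± 0.26 (SD, n = 4) in WT controls, 8.20 ± 0.14 in WT injured, 8.25 ± 0.13 in TLR3-KO controls and 8.11 ± 0.03 in TLR3-KO injured libraries. In WT controls 1 to 4 this mean was 8.05, 8.01, 8.47 and 8.50, so controls of 1 group differed by more than any 2 group means. The 5 ATF4 branch genes averaged 4.15 ± 0.14, 4.04 ± 0.12, 3.86 ± 0.31 and 3.67 ± 0.03 in the same order of groups, and the 6 ERAD genes 7.64 ± 0.20, 7.69 ± 0.11, 7.64 ± 0.08 and 7.63 ± 0.03. Raw totals shifted the median of all genes by 0.11 in WT injured against WT control, and with TMM scaling the chaperone difference there was -0.17 in place of -0.06 and the ERAD difference changed sign, from 0.05 to -0.06. In TLR3-KO mice the chaperone mean overlapped on raw totals (8.11 to 8.42 in controls, 8.07 to 8.15 after pneumonia). On TMM-scaled totals it did not, at 8.22 to 8.33 and 8.04 to 8.08, a difference of -0.20 in place of -0.14. The mean of all 32 members was likewise separate there on TMM-scaled totals, at 7.07 to 7.11 and 6.94 to 6.98. The ATF4 branch overlapped in TLR3-KO mice on both scales. Between the injured genotypes the ATF4 branch was separate on both, with a difference of -0.37 on raw and -0.39 on TMM-scaled totals. Between the control genotypes it differed by nearly as much on TMM-scaled totals, at -0.37, and was separate there. On raw totals the control genotypes overlapped for this branch, with a difference of -0.29. The mean of all 32 members was separate between the injured genotypes on TMM-scaled totals, with a difference of -0.15, but overlapped on raw totals. These means carry no test.

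**Figure D1:**
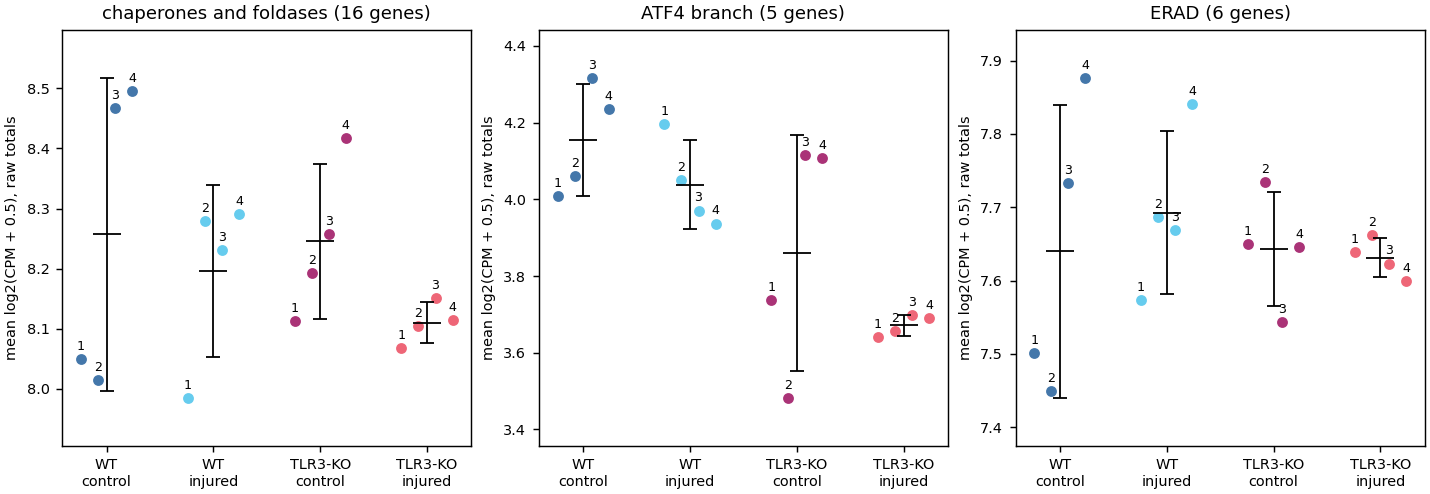
Mean log2(CPM + 0.5) on raw totals of the chaperones and foldases, the ATF4 branch and the ERAD genes in each of the 16 libraries (points, numbered by replicate), with the group mean and SD over 4 libraries (bars); the axes do not start at 0. WT controls 1 and 2 lie below controls 3 and 4 in all 3 panels, and the 4 TLR3-KO injured libraries lie within 3.64 to 3.70 for the ATF4 branch.

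Whether the response genes follow pneumonia was first asked in WT mice. No member passed adjusted p 0.05 in edgeR's quasi-likelihood test (0 of 32, with 0.0161% of all genes tested called), nor in limma voom. DESeq2 called 2 members, Calr and Pdia6, both lower, and 181 genes in all. At an unadjusted p under 0.05 there were 10 members, 9 lower and 1 higher, against 10.7% of all genes (4.45% lower and 6.29% higher). The fold changes leaned down: 24 of 32 were below 0 with a median log2 of -0.12, against 6060 of 12455 genes and a median of 0.01. Of the 16 chaperones and foldases 14 were lower, with a median of -0.24. The lowest p belonged to Pdia6, a disulfide isomerase, at 691, 688, 735 and 677 CPM in WT controls and 453, 546, 547 and 614 CPM in WT injured libraries. These groups did not overlap, and the log2 fold change was -0.37 (SE 0.09; edgeR adjusted p = 0.20). Calr, the lectin chaperone calreticulin, read 1648, 1548, 1437 and 1222 CPM in controls and 954, 1188, 1060 and 1279 CPM in injured libraries, which overlapped. Its log2 fold change was -0.39 and edgeR's adjusted p was 0.25.

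Groups of WT mice did not overlap for 4 of 32 members, all lower after pneumonia (Pdia6, Pdia3, Hsp90b1 and Trib3), against 4.32% of all genes (2.3% lower and 2.02% higher), and on raw totals for Pdia6 and Trib3 only. Trib3, a pseudokinase induced by ATF4, read 9.2, 9.7, 11.8 and 9.1 CPM in controls and 6.8, 7.1, 7.2 and 7.4 CPM in injured libraries. In the other direction Sec61b, the beta subunit of the ER translocon, read 42.2, 45.2, 58.1 and 45.5 CPM in controls and 95.6, 64.5, 52.4 and 57.3 CPM in injured libraries. Its log2 fold change of 0.50 (SE 0.18) had an edgeR adjusted p of 0.32, and the groups overlapped. WT injured library 1 was the lowest of its group for Pdia6, Calr and Hspa5 and the highest for Sec61b. It also had the lowest difference of long minus short transcripts of the WT libraries, at -0.41. Sec61b, at 564 bases, is the shortest transcript of the list. Whether transcript length bears on the values of this library was not tested. Within WT mice the count of called members changed most with the choice of controls. With controls 1 and 2 alone 5 of 32 members were called (Calr, Canx and Pdia6 lower, Dnajb9 and Manf higher). In all 1646 genes were called there, where the main fit tested 12455. With controls 3 and 4 alone Sdf2l1, lower, was the only member called, with 64 genes in all. The chaperone mean difference on TMM-scaled totals was -0.017 against controls 1 and 2 and -0.33 against controls 3 and 4, and on raw totals 0.16 and -0.29. Neutrophil markers summed to 49.3 to 93.4 CPM in WT controls and 81.0 to 263 CPM in WT injured libraries, and erythroid markers, 78.1% of them Beta-s, to 12.6 to 147 and 324 to 678 CPM. Their part in these values was not tested.

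After pneumonia in TLR3-KO mice 2 of 32 members fell, Fkbp11 and Atf4, and none rose (1.54% of all genes were called, 0.642% as lower and 0.899% as higher). DESeq2 called these and Manf (1031 genes in all), and limma voom Fkbp11 alone (106 genes in all). At an unadjusted p under 0.05 there were 10 members, 8 lower and 2 higher, against 24% of all genes (11.9% lower and 12.1% higher). The median log2 fold change was -0.09 over 32 members and -0.01 over all genes, and 22 of 32 were lower.

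In GENCODE M21 on build mm10 Fkbp11 lies at chr15:98724366-98728198 on the minus strand and Atf4 at chr15:80255184-80257541 on the plus strand. Fkbp11 read 7.4, 6.1, 8.9 and 9.4 CPM in controls 1 to 4 of TLR3-KO mice and 3.1, 2.8, 3.7 and 3.9 CPM in the injured libraries. The groups did not overlap, and every injured library lay below the lowest control. The log2 fold change was -1.25 (SE 0.25; edgeR adjusted p = 0.036), a fall by a factor of 2.37. Atf4, the transcription factor of the PERK arm, read 269, 231, 205 and 262 CPM in controls and 164, 145, 135 and 173 CPM in injured libraries. Here too the groups did not overlap, and the log2 fold change was -0.65 (SE 0.15; edgeR adjusted p = 0.047). Both calls were close to the threshold. Leaving out 1 library at a time kept them only without TLR3-KO control 2, where edgeR called 6 members and 1248 genes in all. Otherwise edgeR's adjusted p was 0.052 to 0.092 for Fkbp11 and 0.064 to 0.17 for Atf4. A fit with the replicate number as a block called neither (edgeR adjusted p = 0.070 for each), and Atf4 was not called without the filter on low counts or with these 2 groups fitted alone (0.061 in both).

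**Figure D2:**
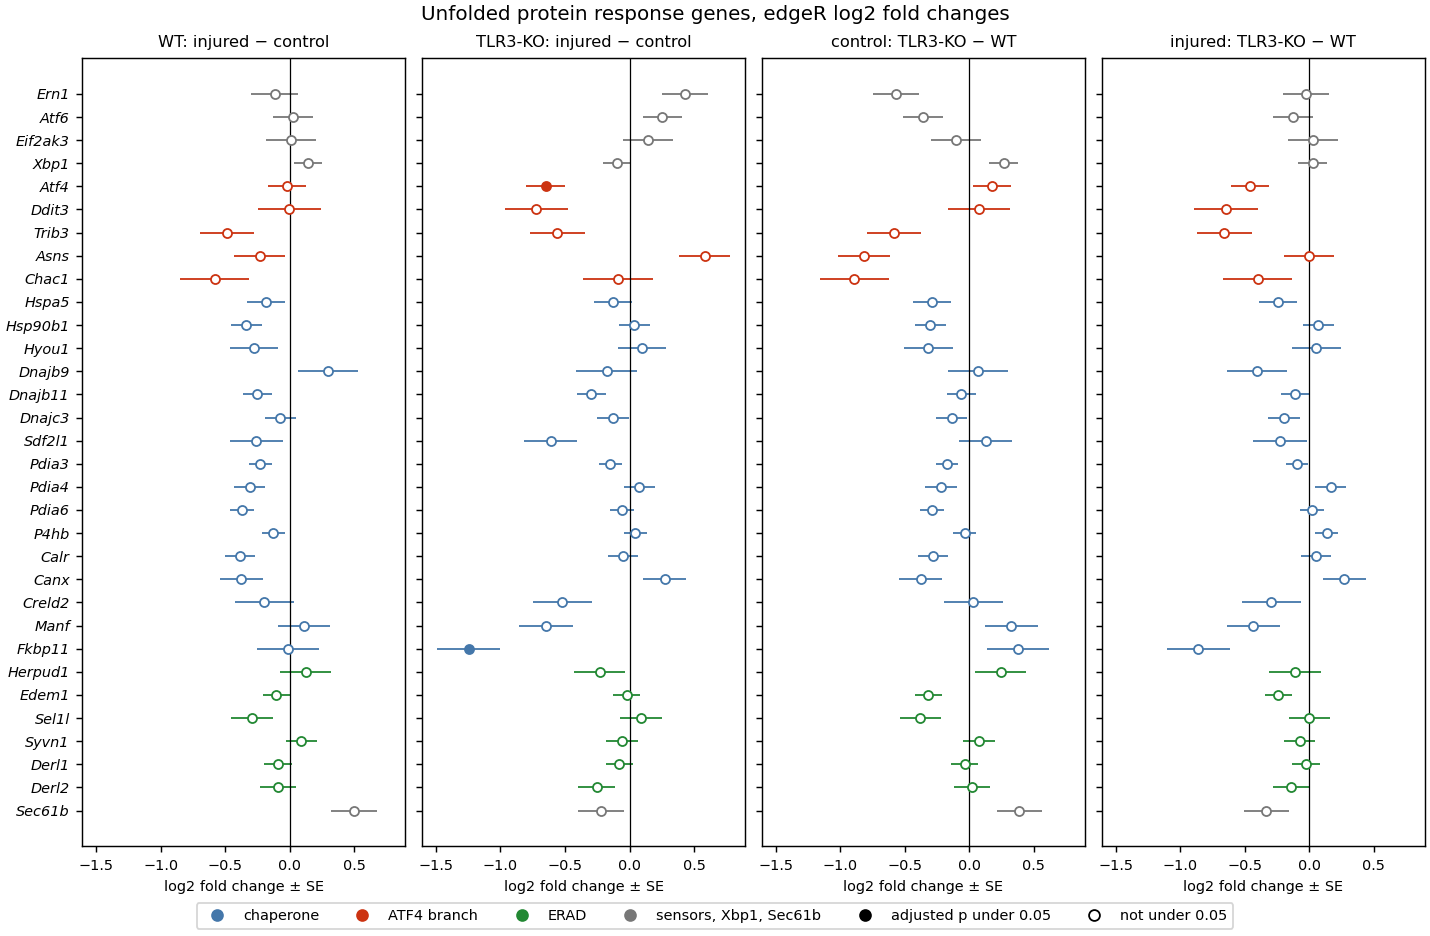
Log2 fold change with its standard error (edgeR) for each of the 32 members in the 4 comparisons of 2 groups; colour gives the branch and a filled point an adjusted p under 0.05. Fkbp11 and Atf4 in TLR3-KO injured against control mice are the only filled points, and 14 of 16 chaperones lie left of 0 in WT mice.

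The targets of ATF4 did not all take the direction of Atf4. Ddit3, which encodes the stress factor CHOP, read 29.6, 21.8, 29.9 and 41.4 CPM in controls of TLR3-KO mice and 18.2, 15.8, 15.6 and 24.7 CPM after pneumonia (log2 -0.72, SE 0.24, edgeR adjusted p = 0.11). Trib3 read 5.6, 4.2, 10.6 and 6.1 CPM in controls and 4.2, 4.9, 4.8 and 4.2 CPM after pneumonia (log2 -0.56). Asns, asparagine synthetase, went the other way, from 6.8, 6.1, 12 and 7.7 CPM to 12.4, 12.1, 13.6 and 10.9 CPM (log2 0.58, SE 0.20, edgeR adjusted p = 0.11). Groups overlapped for Ddit3, Trib3 and Asns, in the last through control 3. Chac1 was at 1.1 ± 0.32 CPM (SD, n = 4) in controls and 1.0 ± 0.25 CPM after pneumonia.

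Among chaperones, Manf, a secreted ER stress factor, read 203, 169, 204 and 233 CPM in controls of TLR3-KO mice and 133, 119, 117 and 147 CPM in injured libraries. The groups did not overlap (log2 -0.65, SE 0.21, edgeR adjusted p = 0.10). Besides Fkbp11, Atf4 and Manf, the BiP co-chaperone Dnajb11 and Pdia3 did not overlap, so that 5 of 32 members were separate and all lower, against 12.9% of all genes (6.32% lower and 6.58% higher). On raw totals Pdia3 overlapped. Sdf2l1 and Creld2, small ER proteins of the chaperone machinery, had log2 fold changes of -0.61 and -0.52 with overlapping groups. The large chaperones Hsp90b1, Calr and Pdia6 lay at 0.04, -0.05 and -0.06. All 6 ERAD genes were between -0.25 (Derl2) and 0.09 (Sel1l), and Ern1 was at 0.43 (edgeR adjusted p = 0.17). With controls 3 and 4 alone 11 of 32 members were called, and 4113 genes in all, where the main fit tested 12455. Of the 11 members 9 were lower (Atf4, Creld2, Ddit3, Derl2, Dnajb11, Fkbp11, Manf, Sdf2l1 and Trib3) and 2 higher (Atf6 and Canx). With controls 1 and 2 alone Asns, higher, was the only member called, with 83 genes in all. The log2 fold changes of Fkbp11 and Atf4 were then -0.997 and -0.69. Among TLR3-KO controls, control 4, the control without Xist, had the highest Fkbp11, at 9.4 CPM. Taken alone, it gave a log2 fold change of -1.49 for Fkbp11 and -0.76 for Atf4. With 1 control the spread comes from the other groups, so whether the difference in Xist bears on these values cannot be told apart from pneumonia. Neutrophil markers, 40.0% of them Csf3r, summed to 62.8 to 92.6 CPM in TLR3-KO controls and 107 to 178 CPM after pneumonia, without overlap. S100a8, S100a9, Retnlg, Cxcr2 and Mmp8 of that list each overlapped. Monocyte markers summed to 78.5 to 351 and 170 to 226 CPM. The sum of dendritic cell markers, 49.4% of it Ccr7, was lower after pneumonia, at 15.6 to 19.0 against 19.2 to 34.8 CPM, also without overlap. Not every marker of that list fell. Zbtb46 read 2.1, 2.0, 1.2 and 1.3 CPM in controls and 1.8, 2.8, 2.2 and 2.6 CPM after pneumonia. T cell markers, at 11.8 and 12.4 CPM in controls 3 and 4, were at most 4.6 CPM after pneumonia. Their part in these values was not tested.

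**Figure D3:**
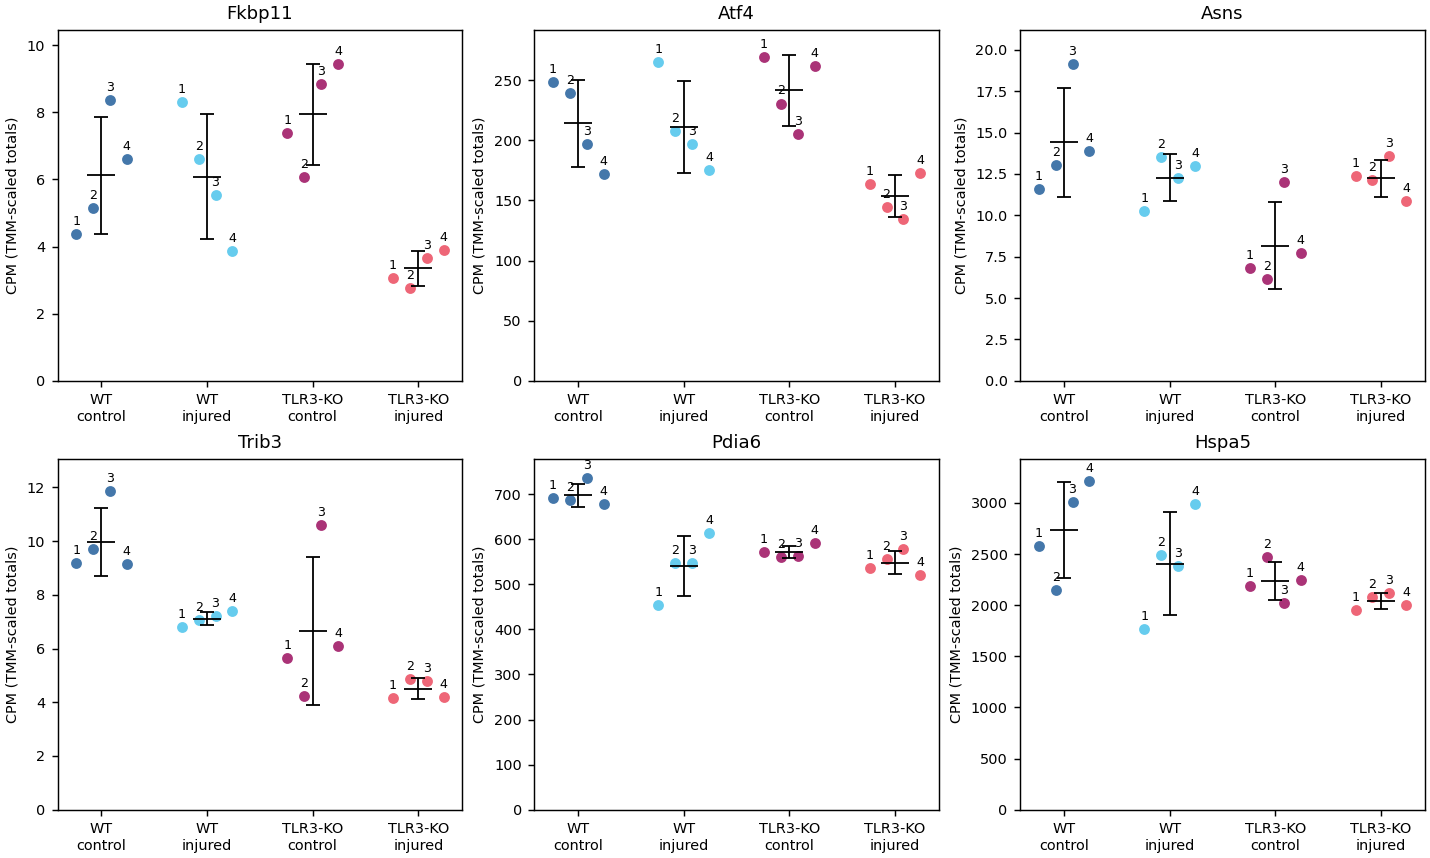
CPM on TMM-scaled totals of Fkbp11, Atf4, Asns, Trib3, Pdia6 and Hspa5 in each library (points, numbered by replicate), with the mean and SD of each group of 4; axes start at 0. The TLR3-KO injured libraries lie below every TLR3-KO control for Fkbp11 and Atf4, and for Pdia6 the WT controls lie above all 12 other libraries.

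Several members with low log2 fold changes in TLR3-KO mice after pneumonia have short transcripts. Fkbp11 (734 bases), Ddit3 (890), Sdf2l1 (1108) and Creld2 (1366) were all below -0.5, whereas Ern1 (6946 bases), Atf6 (7246) and Canx (4281) were above 0.2. Not every member followed this order. The shortest, Sec61b (564 bases), was at -0.22, and Asns (2016) at 0.58. Atf4 (1725), Trib3 (2026) and Manf (2247) were also below -0.5. Across the 32 members Spearman's rho between transcript length and log2 fold change was 0.66, and across 12304 genes of known length it was 0.38. The genes share libraries and are not independent. Between control genotypes the relation ran the opposite way, at -0.50 over members and -0.45 over genes, and in WT mice after pneumonia it was -0.05 and -0.25. When the trend of each library with length was entered as an offset, an alternative chosen after seeing the data, Fkbp11 remained called at -0.91 (edgeR adjusted p = 0.021). Atf4 was then at -0.52 and not called (edgeR adjusted p = 0.070). The part of RNA quality in these shifts was not tested.

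**Figure D4:**
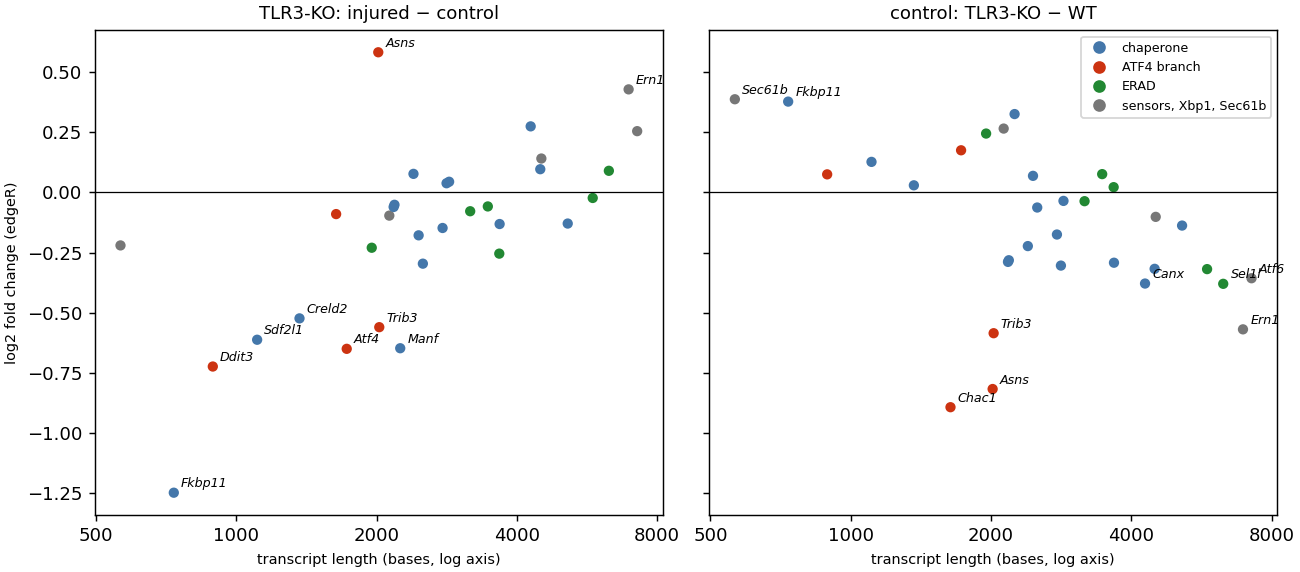
Log2 fold change of the 32 members against transcript length in bases (log axis) for TLR3-KO injured against control mice and for TLR3-KO against WT controls; colour gives the branch and members beyond 0.35 in either direction are named. The points rise with length on the left (rho 0.66) and fall on the right (rho -0.50).

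In mice without pneumonia the genotypes were compared next. edgeR called 0 of 32 members (0.699% of all genes) and limma voom 0. DESeq2 called 5 members, all lower in TLR3-KO (Asns, Chac1, Edem1, Ern1 and Pdia6), and 781 genes in all. At an unadjusted p under 0.05 there were 13, 11 lower and 2 higher (Xbp1 and Sec61b), against 19.9% of all genes (10.3% lower and 9.66% higher). The median was -0.12, against 0.04 over all genes. The 3 ATF4 branch genes Asns, Chac1 and Trib3 had the lowest values, at -0.82, -0.89 and -0.58, while Atf4 was at 0.17 and Ddit3 at 0.07. Asns read 11.6, 13.1, 19.1 and 13.9 CPM in WT controls against 6.8, 6.1, 12 and 7.7 CPM in those of TLR3-KO mice, which overlapped only through TLR3-KO control 3 and WT control 1 (SE 0.20, edgeR adjusted p = 0.060). In both genotypes control 3 was the highest. Without TLR3-KO control 3 edgeR called Asns (log2 -1.06) and Trib3 (-0.91), and with length offsets it called Asns (-0.92, adjusted p = 0.026).

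Chac1 read 2.2, 2.5, 1.6 and 1.9 CPM in WT controls and 1.1, 0.66, 1.2 and 1.4 CPM in TLR3-KO controls, without overlap (SE 0.27, edgeR adjusted p = 0.10). Pdia6 was at 698 ± 25.6 CPM (SD, n = 4) in WT and 571 ± 13.7 CPM in TLR3-KO controls, also without overlap (log2 -0.29, edgeR adjusted p = 0.12). Edem1, a mannosidase-like protein that directs misfolded glycoproteins to degradation, was at 334 ± 37.4 and 267 ± 20.2 CPM, and Sel1l, the partner of the ERAD ligase, at 403 ± 36.7 and 310 ± 66.1 CPM. Groups did not overlap for 5 of 32 members, all lower in TLR3-KO (Chac1, Hsp90b1, Pdia4, Pdia6 and Edem1), against 7.65% of all genes (4.05% lower and 3.6% higher). On raw totals Chac1, Hsp90b1 and Calr were separate and lower, and Xbp1 separate and higher. Ern1 was at 14.8, 14.5, 10.9 and 13.3 CPM in WT and 8.2, 11.4, 9.3 and 7.1 CPM in TLR3-KO controls (log2 -0.57, SE 0.18, edgeR adjusted p = 0.12). Its substrate Xbp1 read 530, 504, 573 and 507 CPM against 717, 694, 586 and 543 CPM (log2 0.26). Without TLR3-KO control 2 Ern1 and Atf6 were called, both lower, with 467 genes in all. With controls 1 and 2 alone Asns, Trib3 (lower) and Manf (higher) were called, with 239 genes in all. Ern1, Edem1 and Sel1l have long transcripts, of 6946, 5817 and 6300 bases. With length offsets the median log2 fold change of the 6 ERAD genes went from -0.0077 to 0.061. Sec61b, at 0.39, was at -0.0038 with length offsets. T cell markers summed to 11.8 and 12.4 CPM in controls 3 and 4 of TLR3-KO mice and to at most 6.3 CPM in the other libraries. Whether these markers, or Xist, bear on the values was not tested.

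After pneumonia edgeR called 0 of 32 members between the genotypes (0.618% of all genes), limma voom 0 and DESeq2 Fkbp11 (444 genes in all). At an unadjusted p under 0.05 there were 5, all lower in TLR3-KO (Atf4, Ddit3, Trib3, Fkbp11 and Edem1), against 16.1% of all genes (7.81% lower and 8.29% higher). Trib3 read 6.8, 7.1, 7.2 and 7.4 CPM in WT and 4.2, 4.9, 4.8 and 4.2 CPM in TLR3-KO injured libraries, without overlap (log2 -0.66, SE 0.21, edgeR adjusted p = 0.17). Fitted with these 2 groups alone, Trib3 was called (-0.67, edgeR adjusted p = 0.031). Atf4 read 265, 208, 197 and 175 CPM in WT and 164, 145, 135 and 173 CPM in TLR3-KO libraries, without overlap (log2 -0.46, SE 0.15), but overlapped on raw totals. Fkbp11 was at -0.86 (edgeR adjusted p = 0.12), and its groups overlapped through WT injured library 4. Without that library it was called at -1.03 (edgeR adjusted p = 0.033). Asns did not share this direction, with 12.3 ± 1.4 CPM (SD, n = 4) in WT and 12.2 ± 1.1 CPM in TLR3-KO libraries. Groups did not overlap for 5 of 32 members, Atf4, Trib3, Sdf2l1, Manf and Derl2, all lower in TLR3-KO, against 11.4% of all genes (5.03% lower and 6.33% higher), and on raw totals for Trib3 and Manf only. Erythroid markers summed to 324 to 678 CPM in WT and 70.7 to 190 CPM in TLR3-KO injured libraries. Epithelial markers, 50.2% of them Cdh1, summed to 84.3 to 116 and 136 to 186 CPM, and neither sum overlapped. Not every epithelial marker was higher in TLR3-KO. Scgb1a1 was at 4.0 to 7.3 CPM in WT and 1.4 to 2.8 CPM in TLR3-KO injured libraries. Their part was not tested.

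Whether the response to pneumonia differed by genotype was tested as the difference of the 2 responses. edgeR called 0 of 32 members and 0.0% of all genes, and limma voom and DESeq2 called 0 members. At an unadjusted p under 0.05 there were 10, 6 higher and 4 lower, against 17.8% of all genes (8.59% higher and 9.21% lower). Fkbp11 had the lowest p. It differed by -1.24 (SE 0.34, edgeR adjusted p = 0.23), from -0.01 in WT to -1.25 in TLR3-KO. Atf4 differed by -0.63, from -0.02 to -0.65, and Asns by 0.81, from -0.23 to 0.58. Canx, the membrane-bound sister of calreticulin, differed by 0.65, from -0.38 to 0.27. A difference in the response of Fkbp11, Atf4 or Asns did not pass after adjustment over all genes. With controls 1 and 2 alone Dnajb9 and Manf were called, both lower, with 58 genes in all.

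Controls 3 and 4 both lay on the same side of controls 1 and 2 in WT and TLR3-KO alike for 15 of 32 members (46.9%), against 45.1% of all genes, so the total was near the share over all genes. They lay above for 11 members, against 22.4% of all genes, and below for 4, against 22.7%. The 11 were Dnajb9, Manf, Creld2, Sdf2l1, Ddit3, Fkbp11, Derl2, Asns, Dnajc3, Dnajb11 and Pdia3, and the 4 were Canx, Atf6, Calr and Hyou1. Dnajb9, a BiP co-chaperone, read 59.8, 58.6, 134 and 130 CPM in WT controls 1 to 4, a ratio of 2.23 between the pairs, and 87.5, 95.4, 111 and 107 CPM in TLR3-KO controls, a ratio of 1.19. Sdf2l1 read 108, 114, 205 and 183 CPM in WT and 138, 116, 206 and 206 CPM in TLR3-KO controls. Creld2 read 86.7, 83.5, 156 and 162 CPM and 103, 89.0, 143 and 163 CPM. Hspa5 did not follow in TLR3-KO, where the ratio was 0.91, against 1.32 in WT. Herpud1, an ERAD adaptor, took opposite sides, with ratios of 1.27 in WT and 0.64 in TLR3-KO. The labels do not say what the numbers stand for.

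Over all 16 libraries the members did not move as a block. Spearman's rho of log2 CPM, given as a description, had a median of 0.21 over the 496 pairs of members and ran from -0.85 to 0.94. Within the chaperones and foldases the median was 0.40 over 120 pairs, and within the ATF4 branch 0.37 over 10 pairs. The closest pairs were Sdf2l1 with Derl2 (0.94), Manf with Derl2 (0.93) and Sdf2l1 with Manf (0.91). The most opposed were Sec61b with Ern1 (-0.85) and with Sel1l (-0.84), which pair the shortest transcript of the list (564 bases) with 2 of the longest. The ratio of Asns to Atf4 CPM, taken up after the values were seen, was 0.035 ± 0.016 (SD, n = 4) in TLR3-KO controls and 0.081 ± 0.016 after pneumonia. It ran from 0.025 to 0.059 and from 0.063 to 0.10, without overlap, and in WT mice it was 0.070 ± 0.023 and 0.060 ± 0.015.

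Other genes of the same pathways came from lists set beside the members. Of 35 further ATF4 and amino acid response genes tested, 2 rose in TLR3-KO mice after pneumonia and none fell, against 0.899% and 0.642% of all genes. Psat1, of serine synthesis, was at 18.7 ± 2.1 CPM (SD, n = 4) in TLR3-KO controls and 27.0 ± 0.9 CPM in injured libraries (log2 0.53, SE 0.13, edgeR adjusted p = 0.049). Aldh18a1, of proline synthesis, was at 29.4 ± 6.3 and 47.6 ± 6.2 CPM (log2 0.69, edgeR adjusted p = 0.049). The list's median log2 fold change was 0.08 in TLR3-KO mice and -0.10 in WT mice, where none of 35 passed and 27 were lower, against 6060 of 12455 genes. The lowest p in WT belonged to Mthfd2, of mitochondrial folate metabolism, at 50.6 ± 12.1 CPM in controls and 30.7 ± 2.8 CPM after pneumonia (log2 -0.72, edgeR adjusted p = 0.20).

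Of 28 further folding and glycoprotein quality control genes, Dnajc10, an ER disulfide reductase, rose in TLR3-KO mice after pneumonia, from 59.0 ± 8.0 to 80.9 ± 4.3 CPM (log2 0.46, edgeR adjusted p = 0.047). Tmx3, a transmembrane disulfide isomerase, was lower in TLR3-KO than in WT controls, at 117 ± 18.4 against 176 ± 21.5 CPM (log2 -0.59, edgeR adjusted p = 0.045). Rcn1, a calcium-binding ER protein, was at 2.7 ± 0.5 CPM in injured libraries of TLR3-KO mice and 0.9 ± 0.3 CPM in those of WT mice (log2 1.57, edgeR adjusted p = 0.053). None of 25 further ERAD genes, 39 translocation and ER export genes or 24 sensors and regulators passed adjusted p 0.05 in edgeR in any of the 5 comparisons. The lowest adjusted p of the ERAD list was 0.067, for Erlin1 in TLR3-KO mice after pneumonia (log2 0.39). That of the translocation list was 0.062, for Ssr3, a subunit of the translocon-associated complex, in TLR3-KO against WT controls (log2 -0.36). That of the sensors and regulators was 0.075, for the cell death gene Bax in TLR3-KO mice after pneumonia (log2 -0.64). Plasma cells are known for high levels of Fkbp11. All 9 plasma cell markers were detected, and their sum, 74.9% of it Txndc5, ran from 196 to 235 CPM in TLR3-KO controls and 228 to 250 CPM in TLR3-KO injured libraries. Pou2af1 was at 0.10 to 2.2 CPM in TLR3-KO controls and 0.37 to 0.69 CPM after pneumonia, and 2010001M09Rik, an older symbol of Mzb1, at 0.042 to 0.71 CPM and at most 0.066 CPM. Among TLR3-KO libraries both were highest in control 4, where Fkbp11 was also highest. Cd79a, of the B cell list, was at 14.6 CPM in that control, 0.59 CPM in TLR3-KO control 3 and 7.4 CPM in WT injured library 4. In TLR3-KO control 3 Pou2af1 was the lowest of the TLR3-KO libraries at 0.10 CPM, with Fkbp11 at 8.9 CPM. In WT injured library 4 Pou2af1 was the highest of any library at 2.4 CPM, and Fkbp11 the lowest of its group at 3.9 CPM. Igj was at most 0.32 CPM in any library, and Tnfrsf17 was at 0 in all but TLR3-KO control 1 (0.026 CPM). Their part in the values of Fkbp11 was not tested.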

How the data were processed

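RNA-seq was read from 16 libraries in 4 groups of 4, assigned by their titles. The table deposited by the authors holds whole-number counts per gene symbol without normalization, made with HTSeq as its name states. Per the submitters' processing notes, FastQC 0.11.3, TopHat2 2.0.13, Bowtie2 2.2.1, Cufflinks and Cuffdiff 2.1.1 were used with mm10. The version, strand setting and annotation of HTSeq: not given in the sources used here. Without strand, reads of Ddit3, Hsp90b1, Pdia3 or Pdia6 and of genes on the opposite strand whose exons overlap theirs (in the table Mars, 1810014B01Rik, Catsper2 and Atp6v1c2) cannot be told apart. The series text counts 15 samples and 16 were given.

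Genes were kept by filterByExpr (minimum count 10; 12455 kept, 10704 removed), scaled by TMM (factors 0.896 to 1.067) and fitted over all libraries with edgeR 4.0.16 (R 4.3.3) by the quasi-likelihood test with default settings, which was tested on simulated data. Benjamini-Hochberg adjustment ran over every gene tested. The alternatives included DESeq2 1.42.0, limma 3.58.1 voom and transcript lengths of GENCODE M21. The members and lists were chosen with earlier results of these data known. Members were named if called, among the 4 lowest p of their branch, or highest or lowest in mean CPM. Others were named, after their values were seen, where a count or an overlap singled them out. Replicate numbers of WT and TLR3-KO controls paired (correlations of same-numbered libraries 0.48 to 0.60), as a hint from the data. Between 29667102 and 59640251 counts per library set the depth.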

Additional observations from a re-analysis of the deposited data

Results flagged for a closer look

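Among 76 sets of 4 libraries examined (17 genes and 2 branch means in 4 groups), 1 held a library far from the other 3, where chance alone gives about 1 in 20. In WT injured mice, Edem1, the ERAD mannosidase-like protein, was at 265.8 CPM in library 1 and at 321 to 331 CPM in libraries 2 to 4. The gap to the nearest library made up 0.854 of the range. Library 1 also had the lowest difference of long minus short transcripts of the WT libraries, at -0.41, and the Edem1 transcript has 5817 bases.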

How the results depend on the processing

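Over the 5 counts of called members, RLE scaling, robust dispersions and the stricter filter on low counts changed none. Counts by DESeq2 were 2 in WT mice after pneumonia (181 genes called in all), 5 between control genotypes (781) and 1 between injured genotypes (444). For TLR3-KO mice after pneumonia the count of 2 was 1 with voom, with no filter, with only the 2 groups compared and with transcript-length offsets. With length offsets and the block it was 2, but Fkbp11 lower and Asns higher (log2 0.72, edgeR adjusted p = 0.047). It was 0 with the replicate block, where edgeR's adjusted p was 0.070 for Fkbp11 and Atf4 alike. With controls 1 and 2 it was 1 (83 genes called in all), and with controls 3 and 4 it was 11 (4113 in all). With 1 library left out it was 0 to 6, the 6 among 1248 genes called in all. The fit with TLR3-KO control 4 alone rests on a lone library assumed to vary like the other groups, and its fold changes are given above. The block gave 0 in the 4 other comparisons, pairing included. Same-numbered libraries correlated at -0.07 to 0.34 in TLR3-KO mice after pneumonia, and 6 of 8 matched their own number best. In WT mice the count of 0 became 5 with controls 1 and 2 (1646 genes called in all) and 1 with controls 3 and 4 (64 in all). Between control genotypes it became 3 with controls 1 and 2, 1 with length offsets, 1 with length offsets and the block, and 0 to 2 with 1 library left out. Between injured genotypes it became 1 with only these groups and 0 to 1 with 1 library left out, and for the difference of responses 2 with controls 1 and 2. Branch means moved by over 1 SD only with the choice of controls. On raw totals chaperones in WT went to 0.16 (controls 1 and 2) and -0.29 (3 and 4), and the ATF4 branch in TLR3-KO to 0.061 and -0.44. On TMM-scaled totals, added after seeing the data, the same values were -0.017 and -0.33, and -0.051 and -0.45, so neither sign change appeared. Against controls 3 and 4 on that scale chaperones in TLR3-KO were at -0.23 and the ATF4 branch in WT at -0.28. Sec61b between control genotypes reversed with length offsets, to -0.0038, and to -0.0058 with the block added. The cause of these changes was not tested.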
